A study of Mus musculus with 5 samples.

Results

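The genes of class I and class II antigen presentation were followed in single cells of mouse islets. The 7 members, of 6627 genes present in the tables of all 5 libraries, were taken by name: B2m, H2-K1, H2-D1, Cd74, H2-Aa, H2-Ab1 and H2-Eb1. The rule that names them uses no measured value. The islets came from C57BL/6 females that were not pregnant (1 library), pregnant (2 libraries, pregnant 1 and pregnant 2) or postpartum (2 libraries, postpartum 1 and postpartum 2), and the labels name no genetic change or drug in any group. The labels give no day of pregnancy, no time after birth, no age and no number of mice per library. The p-values thus measure at most the spread between these libraries, which may be technical. Cells had been captured with inDrop, a droplet method that counts the 3′ ends of transcripts by unique molecular identifiers (UMIs). The question set by the design was how pregnant and postpartum islets compare with islets of non-pregnant females.

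Class I molecules consist of a heavy chain, here H2-K1 or H2-D1, paired with the invariant light chain B2m (beta-2-microglobulin), and show peptides from inside the cell to CD8 T cells and natural killer cells. Nearly every nucleated cell carries them, islet cells included, and interferon raises them. Class II molecules are alpha and beta chain pairs, here H2-Aa with H2-Ab1 (the A molecule) and H2-Eb1 (the beta chain of the E molecule), whose peptide groove is filled by the invariant chain Cd74 until a peptide from the endosome replaces it. They are made mainly by macrophages, dendritic cells and B cells, and resident macrophages are the main such cells of a healthy islet. In C57BL/6 mice the alpha chain of the E molecule is not made, so H2-Eb1 lacks its usual partner.

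The promoter sequences of both pathways share short elements that are known for their control, and 3 are shown so that the 2 layouts can be seen side by side. RefSeq promoter sequences (build GRCm38.p6) of 5 members, B2m, H2-K1, H2-D1, H2-Aa and H2-Eb1, were searched on both strands over the 145 bases from 150 to 6 bases before the start. The motifs were CCAAT (the core of the Y box), GCAAC (part of the X box of class II promoters) and the pair GAAA, any 2 bases, GAAA (the pattern of interferon response elements). No pair of these motifs overlapped in the windows shown. Capitals mark the matches, and ATTGG is CCAAT read on the other strand. The windows are chr2:122147537-122147681 (B2m, plus strand), chr17:34287829-34287973 (H2-Aa, minus strand) and chr17:34305717-34305861 (H2-Eb1, plus strand).
B2m: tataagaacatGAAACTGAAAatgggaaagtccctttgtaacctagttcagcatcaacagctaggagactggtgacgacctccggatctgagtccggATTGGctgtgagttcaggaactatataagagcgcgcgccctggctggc
H2-Aa: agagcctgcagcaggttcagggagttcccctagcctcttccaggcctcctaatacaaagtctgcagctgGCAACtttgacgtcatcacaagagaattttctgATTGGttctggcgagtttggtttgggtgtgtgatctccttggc
H2-Eb1: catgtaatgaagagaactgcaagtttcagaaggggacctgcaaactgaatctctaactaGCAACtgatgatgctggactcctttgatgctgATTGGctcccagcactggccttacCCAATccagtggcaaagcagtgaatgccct
The B2m window held the GAAA pair, beginning 139 bases before the start, and 1 CCAAT on the reverse strand at 53 bases. In both class II windows GCAAC stood ahead of a reversed CCAAT, with 28 bases between them in H2-Aa and 27 in H2-Eb1. Among 32851 RefSeq promoters, 24.1% held CCAAT in the same window, 18.9% held GCAAC, 4.74% held both and 1.54% held the GAAA pair. The H2-K1 window held 1 CCAAT and the H2-D1 window 2, with GCAAC downstream of them. These matches describe the letters only. H2-Ab1 was not matched.

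In GENCODE annotation of GRCm38, B2m lies on chromosome 2 from 122147686 to 122153083. The other members with coordinates lie in the major histocompatibility complex on chromosome 17: H2-K1 from 33996017 to 34000347, H2-Ab1 from 34257689 to 34269419, H2-Aa from 34282744 to 34287823, H2-Eb1 from 34305867 to 34316674 and H2-D1 from 35262730 to 35267499. UMIs were assigned to whole genes by their 3′ ends. Of the 50-base words in the last 500 bases of H2-K1 transcripts, 9.60% also occur in other genes, led by H2-D1, H2-Q1 and H2-T23, and for H2-D1 the share was 8.92%. How the authors' counting treated reads shared by these class I copies is not given in the sources used here, so the split between H2-K1 and H2-D1 is uncertain. No such word was shared for B2m or the 4 class II members.

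The tables held 4687 cells, of which 4672 remained after 15 probable doublets were removed. Median depth differed widely: 2121 UMIs of shared genes per cell in the non-pregnant library, 449 and 81 in pregnant 1 and 2, and 211 and 505 in postpartum 1 and 2. Pregnant 2 stood apart, with 161 cells and 9318 UMIs outside the hormone genes. Acinar markers summed to 6299 CPM in its insulin-classed cells, on 43 UMIs. They summed to 678 CPM in the non-pregnant library, 5.72 in pregnant 1, 2234 in postpartum 1 and 1802 in postpartum 2. Because of its few cells and UMIs, tests are given with and without pregnant 2 where that changes a call. The non-pregnant group is 1 library, deposited on another scale and over more features than the rest, so the group and its table cannot be told apart. Levels are CPM, with each cell's UMIs of the shared genes outside 8 hormone genes scaled to 1 common total, averaged over cells unless called pooled. Cells were classed by the largest of Ins1+Ins2 (3871 cells), Gcg (559), Sst (122) and Ppy (106), and are called insulin, glucagon, somatostatin and Ppy cells.

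B2m was low in the insulin cells of both postpartum libraries. Its mean level was 2165 CPM in the non-pregnant library, 2378 in pregnant 1, 2108 in pregnant 2, 289 in postpartum 1 and 319 in postpartum 2. Both postpartum libraries lay below the 3 others, without overlap. The counts behind these levels were 2307, 1230, 17, 13 and 69 UMIs in that order of libraries, and 15 of the 17 UMIs of pregnant 2 came from 1 cell with 97 UMIs in all, so the high level of that library rests on 1 cell. The exact 95% Poisson intervals of the pooled levels, which cover counting error only, were 2065 to 2242, 2216 to 2480, 1451 to 3988, 176 to 564 and 277 to 451 CPM. The postpartum intervals did not reach those of the other libraries, though the interval of pregnant 2 treats UMIs of 1 cell as independent.

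**Figure D1:**
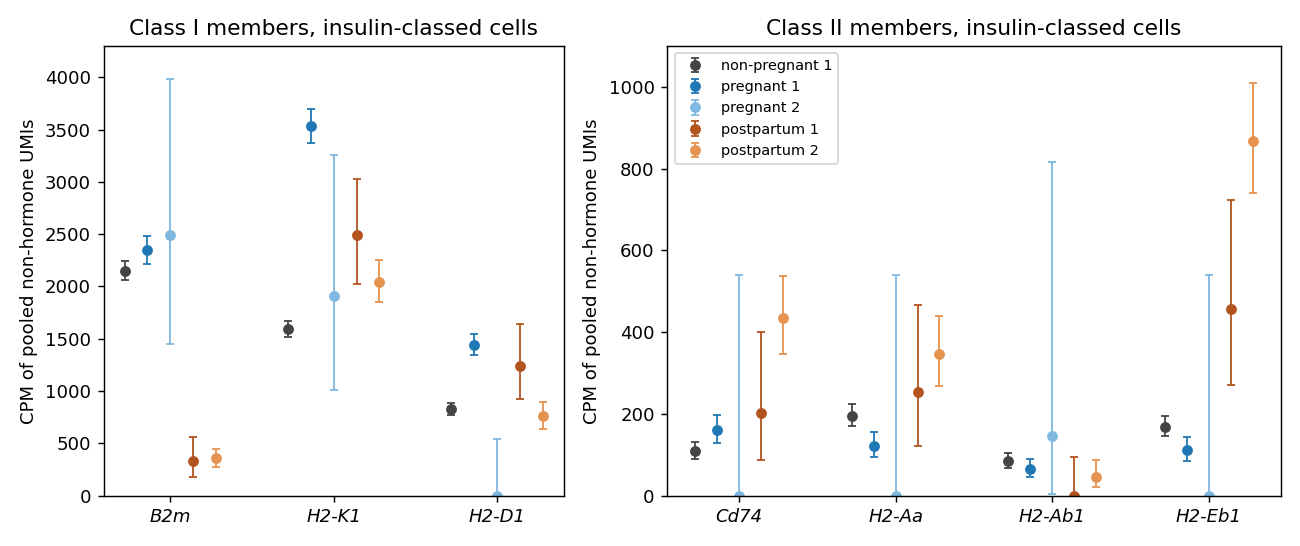
Pooled level (CPM, linear axes) of each of the 7 members in the insulin cells of each library; points are libraries and bars are exact 95% Poisson intervals. The 2 postpartum points of B2m, at 330 and 356 CPM, sit below the others, which lie between 2152 and 2490 CPM.

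With all 5 libraries, limma gave a log2 difference of −2.53 ± 1.07 (SE) between postpartum and pregnant insulin cells (adjusted p = 0.849, unadjusted p = 0.0176) and −2.49 ± 1.31 between postpartum and non-pregnant ones (adjusted p = 0.9998, unadjusted p = 0.0570). No member of the 6 tested passed in any of the 3 comparisons of insulin cells, where limma called 0% of 2216 genes for pregnant against non-pregnant, 0.0903% for postpartum against non-pregnant and 0% for postpartum against pregnant. At unadjusted p under 0.05, limma had 0, 0 and 2 members in these comparisons, and edgeR (calling 0%, 0% and 0.0151% of 6625 genes) and DESeq2 (0.0302%, 0.106% and 0% of 6627 genes) on the recovered UMIs of all libraries called none. H2-Ab1 was below the filter of 100 CPM. All limma fold changes are on the scale of log2(CPM + 100), which understates the change of low genes.

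Without pregnant 2 the SE was smaller and the B2m differences passed. They were −2.62 ± 0.43 against pregnant 1 (limma, adjusted p = 7.30e-07) and −2.49 ± 0.43 against the non-pregnant library (adjusted p = 9.67e-07), and B2m was lower in both of 2 postpartum libraries. In that fit limma called 2.28% of 2456 genes for postpartum against pregnant, 6.31% for postpartum against non-pregnant and 2% for pregnant against non-pregnant. Only 1 residual degree of freedom, from the postpartum pair, was left, against 21748 for the trend over genes. The error thus came almost wholly from that trend and hardly from the spread of B2m itself. With all libraries it came wholly from the trend. The same holds for the later fits at a leading hormone of at least 90% or without C1qb or Ctss cells. The single non-pregnant and pregnant libraries are assumed to vary like the postpartum pair. These limma p-values are therefore not read as support beyond the levels. The 2 comparisons share the postpartum libraries. edgeR without pregnant 2, which called 1.69% and 5.33% of 6625 genes in these comparisons, gave −2.67 (adjusted p = 2.88e-05) and −2.52 (adjusted p = 4.40e-05). Between the non-pregnant library and pregnant 1, B2m differed by 0.13 ± 0.50 (limma, adjusted p = 0.999). An exact permutation of the libraries cannot go below a two-sided p of 0.333 for 2 against 2 or 0.667 for 2 against 1.

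The lower postpartum B2m level was also present where the leading hormone made up at least 90% of a cell's hormone UMIs. The insulin cells at this limit with neither C1qb nor Ctss, 2779 in all, are called strict insulin cells. They had 1899 CPM in the non-pregnant library, 2348 in pregnant 1, 2199 in pregnant 2, 130 in postpartum 1 and 176 in postpartum 2. Both postpartum libraries lay below the others. The level of pregnant 2 again rests on 17 UMIs, 15 of them in 1 cell, so it adds little to that order. The limma fits at the 90% limit kept the cells with C1qb or Ctss. With all libraries limma gave −3.16 ± 1.12 (adjusted p = 0.859) against pregnant and −2.92 ± 1.37 (adjusted p = 0.9997) against non-pregnant, and neither passed. Without pregnant 2 it gave −3.21 (adjusted p = 6.65e-11) against pregnant 1 and −2.92 (adjusted p = 2.63e-09) against the non-pregnant library, where it called 1.94% and 6.4% of 2469 genes. Leaving out cells with C1qb or Ctss gave −2.66 and −2.57 with all libraries (limma, adjusted p = 0.849 and 1), and without pregnant 2 −2.74 (limma, adjusted p = 1.18e-07) and −2.57 (adjusted p = 3.29e-07), where 2.19% and 5.84% of 2466 genes were called.

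Detection of B2m was compared at equal depth, with the non-hormone UMIs of each insulin cell thinned to 50, a setting chosen after seeing the data. B2m was then detected in 9.96% of cells of the non-pregnant library, 10.6% of pregnant 1, 1.49% of pregnant 2, 1.29% of postpartum 1 and 1.45% of postpartum 2. By this measure pregnant 2 lay with the postpartum libraries, unlike its mean level, which rests on 1 cell. Thinning left out 0, 5, 53, 40 and 8 cells as too shallow. Without thinning the shares were 78.8%, 39.2%, 1.67%, 2.23% and 5.12%, at medians of 1316, 244, 52, 89 and 181 non-hormone UMIs. No islet cell type is known to lack B2m, so no background share was available.

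The postpartum B2m levels were low in glucagon cells too. The mean was 1473 CPM in the non-pregnant library for B2m, 1654 in pregnant 1, 0 in pregnant 2, 399 in postpartum 1 and 161 in postpartum 2. The 24 glucagon cells of pregnant 2 allow up to 2147 CPM at 3 counts, so its 0 sets no order. The 2 postpartum libraries lay below the non-pregnant library and pregnant 1. Somatostatin cells had 2163, 2192, 0, 2362 and 223 CPM, where the value of postpartum 1 rests on 4 UMIs in 2 of 15 cells. Ppy cells had 2316, 2612, 0, 855 and 0 CPM, and the value of postpartum 1 is 1 UMI. In these rarer classes the groups overlapped or rested on single UMIs.

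**Figure D2:**
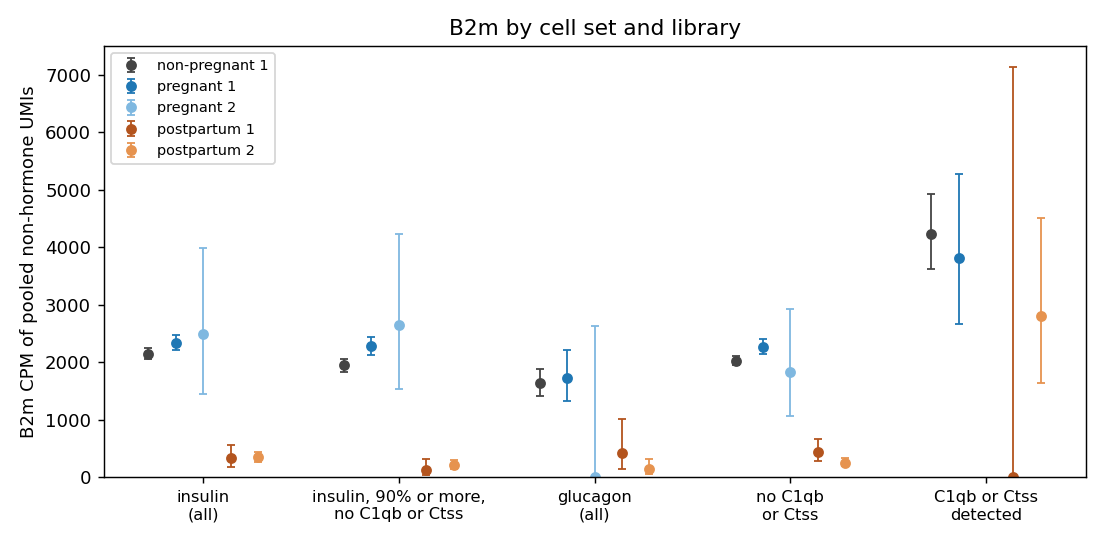
Pooled B2m level (CPM) by library in all insulin cells, strict insulin cells, glucagon cells, cells without C1qb or Ctss and cells with either. Bars are exact 95% Poisson intervals. In the cells with C1qb or Ctss of postpartum 2 the level is 2812 CPM, against 356 CPM in the insulin cells of the same library.

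The heavy chain H2-K1 did not follow its light chain. In insulin cells H2-K1 had 1523 CPM in the non-pregnant library, 3352 in pregnant 1, 2120 in pregnant 2, 2558 in postpartum 1 and 2085 in postpartum 2. The non-pregnant library was lowest and pregnant 1 highest, and the postpartum and pregnant libraries overlapped. limma with all libraries gave 0.77 ± 1.21 for pregnant against non-pregnant (adjusted p = 0.895), 0.57 ± 1.21 for postpartum against non-pregnant (adjusted p = 0.9998) and −0.20 ± 0.99 for postpartum against pregnant (adjusted p = 0.938). Without pregnant 2 the first was 1.09 ± 0.51 (limma, adjusted p = 0.814), and the last was −0.52 ± 0.44 (limma, adjusted p = 0.830). Glucagon cells had 1623, 2755, 541, 3229 and 2519 CPM, again lowest outside pregnant 2 in the non-pregnant library.

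H2-D1, the other heavy chain, had 841 CPM in non-pregnant insulin cells, 1440 in pregnant 1, 0 in pregnant 2, 1219 in postpartum 1 and 836 in postpartum 2. Its 0 in pregnant 2 allows up to 540 CPM by the exact interval. The postpartum libraries lay on both sides of the non-pregnant one. No alternative that kept both pregnant libraries or pregnant 1 alone called it with limma. With pregnant 2 as the only pregnant library it was called in 2 comparisons (limma, −3.23 for pregnant against non-pregnant, adjusted p = 2.08e-09; 3.47 for postpartum against pregnant, adjusted p = 4.91e-14), values that rest on the 0 of that library. In those fits limma called 76.4% and 83.8% of 2106 genes, so the call of H2-D1 lies near the background. In glucagon cells H2-D1 had 961, 1404, 0, 454 and 922 CPM.

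The light chain's share of B2m and H2-K1 UMIs is taken within each library, where depth and the sum of UMIs cancel. Of all B2m and H2-K1 UMIs together, B2m made up 56.3% in the non-pregnant library (exact 95% Clopper-Pearson interval 54.9 to 57.7%), 39.9% in pregnant 1 (38.3 to 41.6%), 54.8% in pregnant 2 (36 to 72.7%), 14.9% in postpartum 1 (9.79 to 21.4%) and 13.7% in postpartum 2 (11 to 16.7%). Both postpartum shares lay below all others, and 15 of the 17 B2m UMIs of pregnant 2 are those of the 1 cell. In strict insulin cells the shares were 54.2%, 39.5%, 56.7%, 5.05% and 9.32%, with the postpartum libraries again lowest. In glucagon cells they were 50.1%, 38%, 0% of 1 UMI, 12.5% and 7.22%. These shares compare libraries and not the levels of the 2 genes, whose 3′ ends may be captured unequally. By contrast H2-K1 made up 65.4%, 70.6%, 100%, 70.3% and 71.9% of the H2-K1 and H2-D1 UMIs, where the 100% is 14 UMIs. Leaving pregnant 2 aside, it was lowest in the non-pregnant library (63.7 to 67.0%), and the intervals of the postpartum libraries held the share of pregnant 1.

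**Figure D3:**
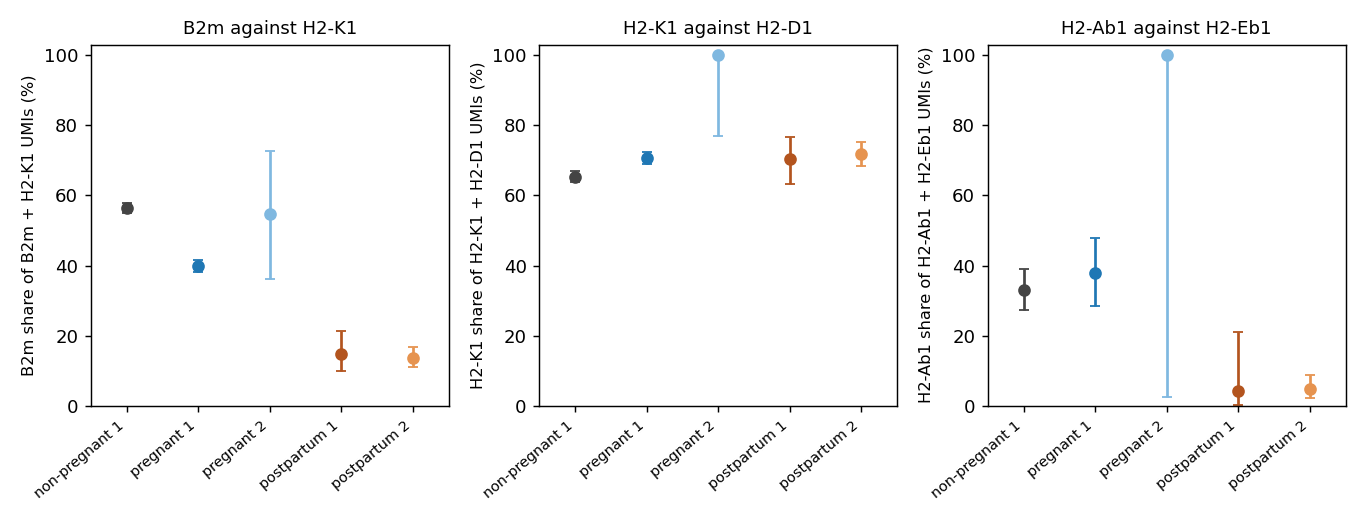
Share (%) of the first gene among the UMIs of a gene pair in each library, over all kept cells; bars are exact 95% binomial intervals. The B2m share is 56.3% and 39.9% in the non-pregnant library and pregnant 1 and 14.9% and 13.7% postpartum, and the H2-Ab1 share is 33% and 37.9% against 4.17% and 4.69%.

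Class II transcripts sat in few cells. The 4 class II members had 1291 UMIs in all libraries together, in 246 of 4672 cells, and 75.9% of these UMIs lay in the 76 cells in which C1qb or Ctss was detected. C1qb is a chain of complement C1q, made by macrophages, and Ctss (cathepsin S) trims the invariant chain in cells that carry class II. The cells with either transcript numbered 24 in the non-pregnant library, 27 in pregnant 1, 0 in pregnant 2, 4 in postpartum 1 and 21 in postpartum 2. Of the class II UMIs, 80.2%, 66.5%, 0%, 38% and 81.5% were in them, in that order. In pregnant 2, the 0 of 161 cells allow a share of cells with such a UMI of up to 1.86%, which at a median of 81 UMIs sets no limit on the cells that express these genes. Its kept cells held 1 class II UMI, and 7 more were in 2 barcodes removed as doublets.

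The cells with C1qb or Ctss were checked against macrophage markers, of which 7 of 15 listed were measured. Another of the 5 markers not used to choose them was detected in 33.3% of these cells in the non-pregnant library, 51.9% in pregnant 1, 25% in postpartum 1 and 66.7% in postpartum 2. In the other cells the shares were 11.6%, 6.42%, 2.72% and 3.71%. Median depths were 1739, 425, 203.5 and 251 UMIs in the cells with C1qb or Ctss and 2124, 450, 211 and 509 in the others. Hormone UMIs made up a median of 41.9%, 37.2%, 34.4% and 4.0% of their UMIs, so these barcodes held hormone RNA too, and least of it in postpartum 2. Whether each is 1 cell was not tested. None of the listed markers of dendritic, B, T or NK cells or neutrophils is among the shared genes, so those cells were not told apart from macrophages.

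All 4 class II members were higher in the cells with C1qb or Ctss than in the other cells of the same library, except H2-Ab1 in postpartum 1. H2-Eb1 had 3191 CPM in these cells of the non-pregnant library, 4670 in pregnant 1, 18365 in postpartum 1 and 30835 in postpartum 2, against 43.1, 28.8, 246 and 167 CPM in the others. Cd74 had 2363, 6366, 19409 and 16502 CPM against 23.4, 56.8, 98.4 and 45.7 CPM. H2-Aa had 4756, 4554, 7971 and 11194 CPM against 26.8, 59.8, 145 and 76.6 CPM. In every library with such cells, each of these 3 genes was higher in them. The postpartum 1 values rest on 7 H2-Eb1, 8 Cd74 and 4 H2-Aa UMIs in 4 cells. In the non-pregnant library 15 of the 24 such cells had no class II UMI, and 1 cell held 217 of the library's 610.

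In the other cells of the libraries tested, Cd74, H2-Aa and H2-Ab1 lay under the filter of 100 CPM, as did H2-Eb1 in the non-pregnant library and pregnant 1, so these genes entered the test through the cells where they were high. The test used the 3 libraries with at least 5 such cells (non-pregnant, pregnant 1 and postpartum 2), with the library as a block, and called 1.68% of 2383 genes, 1.34% higher and 0.336% lower. limma gave H2-Eb1 5.53 ± 0.47 (adjusted p = 4.09e-28), Cd74 5.51 ± 0.48 (adjusted p = 3.03e-27), H2-Aa 5.37 ± 0.48 (adjusted p = 3.00e-26) and H2-Ab1 4.17 ± 0.52 (adjusted p = 3.42e-13). The fit had 2 residual degrees of freedom, and its error came wholly from the trend over genes. These p-values are therefore not read as support beyond the levels. Each of these genes was higher in 3 of 3 libraries and was called in all 14 alternatives run for this comparison. The alternatives reuse the same libraries, so their calls too are not read as support beyond the levels. Among the alternatives were edgeR (0.408% of 6625 genes called), DESeq2 (0.468% of 6627) and limma with no filter (12.6% of 6627). The alternative of at least 10 cells held the same libraries as the main fit. H2-Ab1 had 1899, 2910, 0 and 1375 CPM in these cells of the non-pregnant library, pregnant 1, postpartum 1 and postpartum 2, against 9.72, 19.1, 17.3 and 16.8 CPM in the others, so it was not detected in the 4 cells of postpartum 1. H2-Eb1, Cd74, H2-Aa and H2-Ab1 were among the 10 genes with the largest increases, with Ctss and C1qb, which chose the cells, and with Apoe (4.90 ± 0.48), Laptm5 (3.63), Mpeg1 (3.61) and C1qa (3.53). Laptm5 and Mpeg1 too lay under the filter in the other cells, as did Apoe in the non-pregnant library and pregnant 1.

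**Figure D4:**
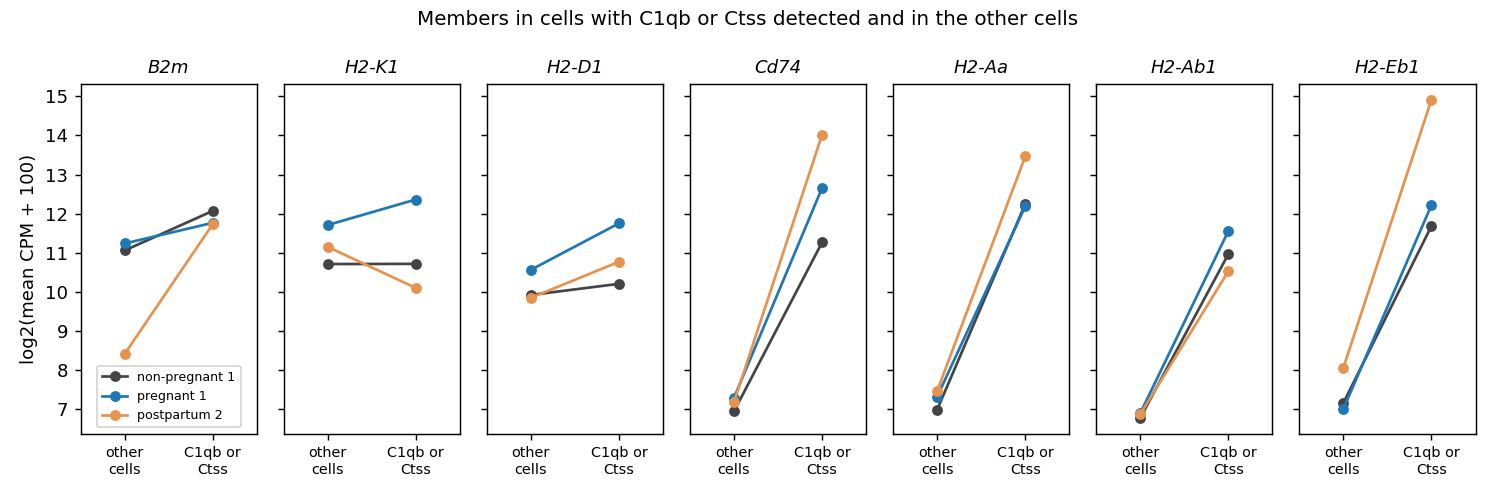
Level of each member as log2(mean CPM + 100) in the cells with C1qb or Ctss and in the other cells of the same library, 1 line per library. The class II members lie far higher in the cells with C1qb or Ctss, while the lines of H2-K1 run in both directions.

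The class I members were much closer between the 2 sets of cells. B2m had 4199 CPM in the cells with C1qb or Ctss of the non-pregnant library, 3379 in pregnant 1, 0 in the 4 cells of postpartum 1 and 3296 in postpartum 2, against 2032, 2313, 401 and 241 CPM in the other cells. It was higher in 3 of the 4 libraries, and most so in postpartum 2. limma called B2m at 1.62 ± 0.46 (adjusted p = 0.0268), but without postpartum 2 the difference was 0.77 (adjusted p = 0.715), and edgeR (adjusted p = 0.720) and DESeq2 (adjusted p = 0.632) did not call it. In these cells of postpartum 2, B2m made up 73.9% of the B2m and H2-K1 UMIs, 17 of 23 (51.6 to 89.8%), where the non-pregnant library had 70.1% and pregnant 1 had 41.4%. That interval lies above the 13.7% of all cells of postpartum 2, and no test across libraries was possible on 1 library. H2-D1 differed by 0.80 ± 0.46 (limma, adjusted p = 0.573) and H2-K1 by −0.13 ± 0.46 (limma, adjusted p = 0.961), with H2-K1 at 1582, 5161, 3986 and 997 CPM in the cells with C1qb or Ctss against 1575, 3249, 2634 and 2170 CPM in the others.

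Cd74 was also detected more often in these cells at equal depth. Thinned to 50 non-hormone UMIs, Cd74 was detected in 8.30% of the cells with C1qb or Ctss in the non-pregnant library, 24.9% in pregnant 1 and 46.2% in postpartum 2, and in 0.116%, 0.271% and 0.218% of the other cells. Thinning left out none of the former and 0, 5 and 8 of the latter. Unthinned, the shares were 33.3%, 59.3% and 76.2% against 2.57%, 1.27% and 0.725%, at medians of 1212, 310 and 208 against 1275, 240 and 187.5 non-hormone UMIs. Strict insulin cells had thinned shares of 0.0979%, 0.261% and 0.218% at medians of 1412, 243 and 178 non-hormone UMIs. Since cells with C1qb or Ctss were left out of them, they are a part of the other cells and no separate control.

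Cells with transcripts of at least 2 class II members numbered 19 in the non-pregnant library (2.26% of its cells), 19 in pregnant 1 (0.955%), 0 in pregnant 2, 6 in postpartum 1 (1.08%) and 23 in postpartum 2 (2.04%). The exact 95% intervals of the non-pregnant library, 1.37 to 3.51%, and of postpartum 2, 1.30 to 3.05%, overlapped, and pregnant 1 had 0.576 to 1.49%. Of these cells 8, 15, 3 and 16 also had C1qb or Ctss, and 11, 4, 3 and 7 had neither. Conversely 15, 9, 1 and 4 cells with C1qb or Ctss had no class II UMI. Among cells with Cd74, H2-Eb1 was also detected in 12 of 29 in the non-pregnant library, 12 of 41 in pregnant 1, 5 of 8 in postpartum 1 and 22 of 24 in postpartum 2. In the non-pregnant library 1 cell held 217 of the 610 class II UMIs, and in postpartum 2 the leading cell held 39 of 352.

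Among the class II beta chains, H2-Ab1 held a smaller share in the postpartum libraries over all cells. It made up 33% of the H2-Ab1 and H2-Eb1 UMIs in the non-pregnant library (27.4 to 38.9%), 37.9% in pregnant 1 (28.5 to 48%), 4.17% in postpartum 1 (1 of 24 UMIs, 0.105 to 21.1%) and 4.69% in postpartum 2 (9 of 192 UMIs, 2.17 to 8.71%). The postpartum intervals did not reach those of the non-pregnant library and pregnant 1, while pregnant 2 had 1 UMI of the pair and set no order. Within the cells with C1qb or Ctss the shares were 37.2%, 38.7%, 0% of 7 UMIs and 3.90%, and without the cell richest in class II of each library they were 30.1%, 36.3%, 6.25% and 5.33%, with the interval of postpartum 1 (0.158 to 30.2%) then reaching those of the non-pregnant library and pregnant 1. In the cells with neither C1qb nor Ctss the shares were 19.7% (10.9 to 31.3%), 35.7% (18.6 to 55.9%), 5.88% (0.149 to 28.7%) and 7.89% (1.66 to 21.4%). In strict insulin cells they were 15.4%, 33.3%, 0% of 6 UMIs and 12.5%. In both sets the postpartum intervals overlapped that of the non-pregnant library. Among the cells with C1qb or Ctss that of postpartum 2 (1.44 to 8.29%) did not. H2-Aa made up 54.1%, 55.2%, 36.1% and 28% of the H2-Aa and H2-Eb1 UMIs, and Cd74 39.8%, 60%, 36.1% and 32.7% of the Cd74 and H2-Eb1 UMIs. For H2-Aa the interval of postpartum 2 (22.5 to 33.9%) lay below those of the non-pregnant library and pregnant 1, and that of postpartum 1 (20.8 to 53.8%) overlapped them. In the other cells the H2-Aa shares of the non-pregnant and postpartum libraries were close, at 35.4%, 36% and 32.7%. For Cd74 the intervals of the non-pregnant library (34.3 to 45.5%) and both postpartum libraries overlapped, and in the cells with C1qb or Ctss the share of postpartum 1 was the higher (53.3% against 42.2%), so no order is read from it.

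Class II levels in insulin cells were low beside those of class I, and transcripts of macrophage markers were found in the same cells. The insulin cells include the cells with C1qb or Ctss whose largest hormone was insulin. In postpartum 2 the insulin cells held 168 H2-Eb1 UMIs, and the 21 cells with C1qb or Ctss, of any class, held 148. In insulin cells H2-Eb1 had 165 CPM in the non-pregnant library, 92.0 in pregnant 1, 0 in pregnant 2, 391 in postpartum 1 and 834 in postpartum 2. The 2 postpartum libraries were highest, without overlap, and the summed level of the 7 measured macrophage markers in the same cells was 295, 543, 0, 584 and 816 CPM, with C1qb and Laptm5 at 0 in postpartum 1 and all 7 at 0 in pregnant 2. limma gave 2.29 ± 1.15 for postpartum against pregnant with all libraries (adjusted p = 0.849) and 1.82 ± 0.45 without pregnant 2 (adjusted p = 0.00400), and 1.35 ± 1.40 (adjusted p = 0.9998) and 1.35 ± 0.45 (adjusted p = 0.0406) for postpartum against non-pregnant. With the cells with C1qb or Ctss also left out, these were 1.4 ± 0.49 (limma, adjusted p = 0.119) and 1.19 ± 0.49 (limma, adjusted p = 0.154), so the calls were lost. The 90% hormone limit without pregnant 2 kept the cells with C1qb or Ctss. There limma called H2-Eb1 higher postpartum against the non-pregnant library and did not call it against pregnant 1. The strict insulin cells held 11, 8, 0, 6 and 21 H2-Eb1 UMIs, a pooled level of 17.9, 24, 0, 165 and 123 CPM. There H2-Eb1 lay above 100 CPM only in the postpartum libraries, and no test is given.

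Cd74 and H2-Aa passed no limma test in insulin cells without pregnant 2, and H2-Ab1 was below the filter. Cd74 had 109, 140, 0, 184 and 413 CPM, H2-Aa had 194, 110, 0, 197 and 331 CPM, and H2-Ab1 had 79.4, 55.9, 132, 0 and 52.8 CPM, where the 132 of pregnant 2 is 1 UMI. The postpartum libraries were highest for Cd74 and for H2-Aa, and not for H2-Ab1. edgeR without pregnant 2 called Cd74 for postpartum against non-pregnant (1.81, adjusted p = 0.0183). In postpartum 2, 79 of the 89 Cd74 UMIs of all cells lay in the 21 cells with C1qb or Ctss. Strict insulin cells held 8, 18, 0, 2 and 7 Cd74 UMIs in the 5 libraries. In glucagon cells Cd74 had 19.7, 73.9, 0, 478 and 106 CPM and H2-Eb1 had 0, 98.5, 0, 424 and 258 CPM, on 5 and 10 H2-Eb1 UMIs in the postpartum libraries. Beyond leaving out the cells with C1qb or Ctss, the part of the macrophage markers in these levels was not tested.

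Between glucagon and insulin cells of the same library no member passed with limma, with all 5 libraries (0 of 6 tested, 0 at unadjusted p under 0.05, where 0.649% of 2157 genes were called) or without pregnant 2 (0 of 6, with 1 at unadjusted p under 0.05, where 11.9% of 2446 genes were called). DESeq2, which called 2.6% of 6627 genes, called none of the members. B2m differed by −1.16 ± 0.72 (limma, adjusted p = 0.470) and by −0.34 ± 0.22 without pregnant 2 (adjusted p = 0.366), and H2-K1 by −0.28 ± 0.47 (limma, adjusted p = 0.744). edgeR on the recovered UMIs called 5.15% of 6625 genes, among them H2-Aa at −1.63 (adjusted p = 0.0450) and H2-Eb1 at −1.77 (adjusted p = 0.00839), both lower in glucagon cells. Without pregnant 2 edgeR called 6.35% of 6625 genes, with Cd74 at −1.40 (adjusted p = 0.0456), H2-Aa at −1.70 (adjusted p = 0.0115) and H2-Eb1 at −1.84 (adjusted p = 0.000575). The summed macrophage markers stood at 125, 585, 0, 259 and 88.1 CPM in glucagon cells and at 295, 543, 0, 584 and 816 CPM in insulin cells, and their part in these differences was not tested. Of the pathway lists, limma called none with all libraries and, without pregnant 2, Hspa5 (the chaperone BiP; −0.74 ± 0.19, adjusted p = 0.0126) as lower in glucagon cells.

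Other genes of the class I pathway were mostly not called in insulin cells. Of the 25 listed, 19 are among the shared genes. Without pregnant 2, limma tested 11 and called 2 as lower postpartum than in the non-pregnant library, B2m and Tapbp (tapasin, which holds class I at the peptide transporter; −1.49 ± 0.44, adjusted p = 0.0145), with a median of 0.24 over the list and −0.00 over all genes. Tapbp had 1122, 701, 0, 480 and 228 CPM, lower in both postpartum libraries than in the non-pregnant library and pregnant 1. Against pregnant 1 limma called B2m alone of 11, with a median of −0.22 beside −0.03 over all genes, and none for pregnant 1 against the non-pregnant library. Over all 2456 genes limma without pregnant 2 called 6.31% for postpartum against non-pregnant, 2.28% against pregnant 1 and 2% for pregnant 1 against non-pregnant. With all libraries limma called none of the 10 tested in the 3 comparisons. edgeR without pregnant 2, which tested 19, called 1 up and 2 down postpartum against non-pregnant (Psme2, B2m and Tapbp), 1 up and 1 down postpartum against pregnant (H2-Q4 and B2m) and 1 up and 1 down for pregnant 1 against non-pregnant (H2-T23 and H2-Q4, where it called 2.34% of 6625 genes). Both are class I heavy chains, and H2-T23 is among the genes whose 50-base words H2-K1 shares. In the postpartum comparisons edgeR without pregnant 2 called 5.33% of 6625 genes against non-pregnant and 1.69% against pregnant.

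Of the class II pathway list, limma without pregnant 2 tested 6 genes in insulin cells. H2-Eb1 rose and Ctsb (cathepsin B, a lysosomal protease) fell in both postpartum comparisons. Ctsb had 1407 CPM in the non-pregnant library, 1098 in pregnant 1, 2454 in pregnant 2, 118 in postpartum 1 and 339 in postpartum 2. Both postpartum libraries lay below the others, and limma without pregnant 2 gave −2.29 ± 0.44 (adjusted p = 1.18e-05) against the non-pregnant library and −1.95 (adjusted p = 0.00115) against pregnant 1. The list's medians were 0.06 and −0.01 beside −0.00 and −0.03 over all genes. In these fits limma called 6.31% and 2.28% of all genes. With all libraries limma called 0 of the 6. Over all 6625 genes edgeR without pregnant 2 called 5.33% for postpartum against non-pregnant and 1.69% for postpartum against pregnant. edgeR without pregnant 2 tested 11 and called, against the non-pregnant library, H2-Eb1 and Cd74 up and Ctsb and Ifi30 (a lysosomal thiol reductase; −3.32, adjusted p = 0.0269) down. Against pregnant 1 it called H2-Eb1 up and Ctsb and Ctsl (cathepsin L; −2.04, adjusted p = 0.0115) down.

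Of the interferon response list, limma without pregnant 2 tested 3 of 30 genes in insulin cells and called none. edgeR without pregnant 2, which keeps lower counts, called Irf1, an interferon-induced transcription factor, at 2.06 against the non-pregnant library (adjusted p = 0.00864) and 3.02 against pregnant 1 (adjusted p = 0.000359), and the ubiquitin-like Isg15 at 4.18 (adjusted p = 3.05e-05) and 4.96 (adjusted p = 6.43e-05), both higher postpartum. Irf1 had 87.5, 29.7, 0, 190 and 248 CPM and Isg15 had 10.1, 5.21, 0, 24.8 and 221 CPM in the 5 libraries, so both were highest postpartum and Isg15 mainly in postpartum 2. In that library Isg15 stood at 7473 CPM in the 21 cells with C1qb or Ctss and at 39 CPM in the others. Without pregnant 2 edgeR called 2 of the 18 listed genes tested in each postpartum comparison. Over all 6625 genes it called 5.33% against the non-pregnant library and 1.69% against pregnant 1. The median edgeR log2 difference of the 18 listed genes, without pregnant 2, was −0.73 against the non-pregnant library and −0.10 against pregnant 1. Over all genes it was −0.06 and −0.05, so the list as a whole was not higher postpartum. With all libraries edgeR called neither Irf1 nor Isg15.

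In the cells with C1qb or Ctss, 10 of the 25 class II pathway genes were tested, among them the 4 members and Ctss, which chose the cells. Of the 5 others limma called 2 as higher, beside 1.34% of all genes: Lgmn (legumain, an endosomal protease that acts on the invariant chain; 2.26 ± 0.56, adjusted p = 0.00530) and Ctsb (1.96 ± 0.46, adjusted p = 0.00221). Lgmn lay at 35.3, 52.5 and 23.8 CPM in the other cells of the non-pregnant library, pregnant 1 and postpartum 2. These levels are under the filter of 100 CPM, so Lgmn entered the limma test through the cells where it was high. edgeR called Lgmn (3.76, adjusted p = 0.00488) and not Ctsb. Of 14 class I pathway genes tested, B2m rose and Pdia3, an endoplasmic reticulum chaperone of the peptide-loading complex, fell (limma, −2.02 ± 0.55, adjusted p = 0.0159), with a median of 0.09. Pdia3 had 441, 0 and 0 CPM in these cells of the non-pregnant library, pregnant 1 and postpartum 2, against 497, 588 and 776 CPM in the others, and edgeR did not call it (adjusted p = 0.720). Of 8 interferon response genes none passed with limma, Isg15 being closest at 2.00 ± 0.60 (adjusted p = 0.0502), while edgeR, which tested 18, called Isg15 (4.25, adjusted p = 0.0221) and the chemokine Cxcl10 (3.87, adjusted p = 0.00892) as higher. Both were high in postpartum 2 only, with Cxcl10 at 1665 CPM there against 11.6 CPM in the other cells.

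The genes most like B2m and Cd74 in their levels were sought among 2235 others over 13 combinations of library and cell set, which share libraries and depth. For B2m, Pearson's r was highest for Atox1 (0.89), Lamtor1 (0.89), Sdcbp (0.88), Cd63 (0.86) and Rps24 (0.81). H2-D1 came at rank 316 (0.47) and H2-K1 at rank 836 (0.29), so the heavy chains were not among the genes closest to the light chain. For Cd74 the closest were H2-Eb1 (0.98), Ctss (0.98), H2-Aa (0.98), Apoe (0.98) and Nfe2l2 (0.96). These values describe the 13 points.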

How the data were processed

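Islet cells of 5 libraries were profiled by inDrop. Per the submitters' processing notes, reads were handled in Partek 8.0 with Bowtie 1.1.1 on GRCm38 (mm10). The authors deposited the non-pregnant table as a linear normalized signal in which every cell has the same sum, and the other 4 tables as log2 values (log2 of CPM + 1). Each cell's smallest step gave whole UMIs for 100% of values within a tolerance of 0.1, so UMIs were recovered and scaled again over the 6627 shared genes, outside Ins1, Ins2, Gcg, Sst, Ppy, Pyy, Iapp and Ttr. Of these genes 84 were matched by synonym. Cell columns are numbered, so barcodes shared between libraries could not be counted. Scrublet (scanpy 1.11.5) marked 15 of 4687 cells (0.320%), too few to show that doublets were found, and these were removed.

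Because the deposited values are normalized, the main test was limma 3.58.1 (trend) in R 4.3.3 on log2(mean CPM + 100) per library and class, for genes averaging 100 CPM or more and classes of at least 10 cells (5 for cells with C1qb or Ctss), two-sided, Benjamini-Hochberg 0.05. edgeR 4.0.16 (genes with at least 10 UMIs) and DESeq2 1.42.0 on recovered UMIs were alternatives. Further alternatives were other pseudocounts, no filter, pooled UMIs, CPM of all UMIs, a leading hormone of at least 90%, cells with C1qb or Ctss left out, doublets kept, a replicate block and each library left out. Settings that combine the loss of pregnant 2 with another change were chosen after seeing the data. The limma step was tested on simulated data. Intervals are exact at 95%, and the floor is 3 counts. All 7 members were named, with those of 3 pathway lists past the test and the 10 largest changes. Members and lists were chosen with earlier results of these data known. The replicate numbers did not pair the pregnant and postpartum libraries.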

Additional observations from a re-analysis of the deposited data

Results flagged for a closer look

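Among the 3 libraries with at least 5 cells with C1qb or Ctss, H2-K1 lay on different sides of the other cells in different libraries, and the 6 other members were higher in all 3. In the 4 such cells of postpartum 1, B2m and H2-Ab1 were at 0. The log2 difference was 0.0055 in the non-pregnant library, 0.65 in pregnant 1 and −1.05 in postpartum 2, the last on 6 UMIs. Whether these libraries differ was not tested, since each group is 1 library here.

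Antigen presentation genes outside the shared genes were counted in the non-pregnant table alone, so no comparison uses them. Of the class I pathway, Psmb9 (an immunoproteasome subunit) had 69 UMIs, Tap1 (a subunit of the peptide transporter) 57, H2-Q7 51, H2-Q10 8 and Nlrc5 (the class I transactivator) 6. Of the class II pathway, Rfxap had 43 UMIs and Rfxank 23 (both parts of the X box binding complex), Cd40 23, H2-DMa 12, Cd80 7, H2-DMb1 5, and Cd86 5. Each exceeds the 3 counts that a count of 0 allows, and there is no control library for them.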

How the results depend on the processing

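The calls in insulin cells depended on which pregnant library was kept. Leaving out each library in turn gave 0 to 1609 genes for pregnant against non-pregnant (0 with all libraries), 0 to 158 for postpartum against non-pregnant (2) and 0 to 1765 for postpartum against pregnant (0). The highest values came without pregnant 1, where pregnant 2 stands alone. Without pregnant 2 they were 49, 155 and 56 genes, the second close to the 158 without pregnant 1. With pregnant 2 also left out, edgeR gave 155, 353 and 112, a leading hormone of at least 90% 51, 158 and 48, and the loss of cells with C1qb or Ctss 48, 144 and 54. With all libraries and in the same order, DESeq2 gave 2, 7 and 0, edgeR 0, 0 and 1, no filter 3, 3 and 1, pooled UMIs 0, 4 and 2, a pseudocount of 20 1, 1 and 1, a pseudocount of 500 2, 3 and 0, and CPM of all UMIs 0, 0 and 0. Glucagon against insulin cells gave 14 genes, 0 at either pseudocount, 172 with DESeq2, 341 with edgeR, 421 with edgeR without pregnant 2, 246 and 304 with the hormone limit or the loss of C1qb or Ctss cells without pregnant 2, and 0 to 291 with 1 library left out. Cells with C1qb or Ctss against the others gave 40 genes, 835 with no filter and 19 to 32 with 1 library left out (19 without pregnant 1). The cause was not tested.

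The deviations of same-numbered pregnant and postpartum libraries had r = 0.0326 over 2055 genes, and the replicate block called 0 genes for postpartum against pregnant (limma, 16 at unadjusted p under 0.05). Over all genes the median log2 difference was −0.58, −0.01 and 0.56 in the 3 insulin comparisons and 0.02, −0.00 and −0.03 without pregnant 2.

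The sign of a member turned in 30 of 494 recomputed values, none of them called. For pregnant against non-pregnant, B2m was −0.30 with DESeq2, −0.39 with edgeR and −0.037 to 0.13 with 1 library left out. Cd74 was −1.06 to 0.20 with 1 library left out, and without pregnant 2 it was 0.58 with edgeR and 0.59 with the hormone limit. H2-D1 was −3.23 to 0.71 with 1 library left out, and without pregnant 2 it was 0.82 with edgeR, 0.83 with the hormone limit and 0.69 without cells with C1qb or Ctss. H2-Eb1 was 0.032 with the hormone limit and 0.40 without pregnant 2 as well. For postpartum against pregnant, H2-D1 was −0.47 to 3.47 with 1 library left out, and without pregnant 2 it was −0.51 with edgeR, −0.56 with the hormone limit and −0.45 without cells with C1qb or Ctss. H2-K1 was 0.13 with DESeq2, 0.18 with edgeR and −0.52 to 0.12 with 1 library left out. For postpartum against non-pregnant, CPM of all UMIs gave −0.30 for H2-D1 and −0.032 for H2-K1, and H2-D1 was −0.0067 to 0.49 with 1 library left out. Between glucagon and insulin cells, leaving 1 library out gave −0.29 to 0.066 for H2-D1 and −0.43 to 0.10 for H2-K1, and without pregnant 2 H2-K1 was 0.087 with the hormone limit and 0.085 without cells with C1qb or Ctss. In the cells with C1qb or Ctss, H2-K1 was 0.066 at 2 or more UMIs, 0.13 for C1qb alone, 0.50 with CPM of all UMIs and −0.52 to 0.33 with 1 library left out.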
